A study of Arabidopsis thaliana with 24 samples.

Results

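A copy of most of the mitochondrial genome of the thale cress Arabidopsis thaliana lies in the nucleus, near the centromere of chromosome 2. The region described here is that copy, taken as every annotated feature that starts on chromosome 2 from base 3240000 to base 3510000. It holds 220 of the 69289 features for which methylation was tabulated, namely 140 genes, 36 transposable elements, 28 pseudogenes and 16 transposable element genes. DNA methylation was measured by bisulfite sequencing, which converts unmethylated cytosines, so that a cytosine still read as one counts as a methylated call. The plants were of the accession Col-0, and 4 genotypes named wt21, ago5, ago9 and ago59 were each studied in 2 cell types. Sperm nuclei were sorted from the pollen of plants at 35 days after germination, with 50000 nuclei per replicate. From seedlings at 7 days, nuclei of shoot meristem stem cells were sorted by the red fluorescent protein mCherry, 3000 to 4000 for each replicate. The alleles of ago5 and ago9, the makeup of ago59 and the promoter that drives mCherry are not spelled out in the labels.

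The labels list 2 replicates per group, but the tabulated calls are 1 pool per genotype and cell type, so 8 pools were compared without a replicate. No difference below was set against the spread between replicates, and no test was made. Intervals are 95% intervals for counting error only (Wilson for a level, Newcombe for a difference), and calls that share a read depend on each other. Cell type also cannot be told apart from organ, plant age or number of nuclei. Cell identity was not checked by markers, since methylation is not a readout of expression.

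DNA that moves from the mitochondrion to the nucleus becomes subject to nuclear DNA methylation. In plants, MET1 maintains CG methylation, CMT3 maintains CHG methylation together with histone H3 lysine 9 methylation, and small RNAs bound by ARGONAUTE (AGO) proteins help to direct CHH methylation, where H is A, C or T. Mitochondrial DNA itself is generally held to carry little or no cytosine methylation, so the nuclear copy and its source can differ in methylation where they hardly differ in sequence. Earlier work by fibre hybridization and by long-read assembly described the copy as longer than the reference assembly shows.

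In the reference assembly TAIR10.1 the copy spans chr2:3239038-3509765, which is 270728 bases, and 99.6% of these align to the mitochondrial genome of that assembly in 15 stretches. The stretches are rearranged relative to the mitochondrial order, the longest is 50622 bases, and together they cover 70.9% of the mitochondrial genome. The aligned bases are 99.9% identical, with 185 base differences, or 1 in 1457 bases, and the longest run without a difference is 8558 bases. Of all windows of 100 bases in the copy, 92.3% also occur unchanged in the mitochondrial genome. The same holds for 95.9% of windows of 50 bases and 88.8% of windows of 150 bases. Of the windows of 100 bases, 10.7% occur more than once in the copy and 1.23% elsewhere in the nuclear genome. The mitochondrial sequence that the authors aligned to was not the one in TAIR10.1, since gene positions differ and its last feature ends at 366700. Which positions told the copies apart in their alignment is therefore not known here.

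The ends of the copy and 4 places inside it show how close the sequences are. The sequences are RefSeq's for TAIR10.1, on the plus strand of chromosome 2, and in the junctions the capitals mark mitochondrial sequence. The left junction is chr2:3239008-3239067 and the right junction is chr2:3509736-3509795.
Left junction: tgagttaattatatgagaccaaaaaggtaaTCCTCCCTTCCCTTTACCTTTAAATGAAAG
Right junction: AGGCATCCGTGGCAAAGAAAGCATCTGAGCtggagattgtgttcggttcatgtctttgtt
In the next pairs the capitals mark the bases that differ between the nuclear copy and the mitochondrial genome. AT2G07715 (chr2:3411639-3411759) holds a pair of adjacent C-to-T changes relative to the mitochondrial genome, bases 222031 to 222151 on the minus strand.
AT2G07715, chromosome 2: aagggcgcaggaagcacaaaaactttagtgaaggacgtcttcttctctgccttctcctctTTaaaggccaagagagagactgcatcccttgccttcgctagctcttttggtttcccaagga
AT2G07715, mitochondrion: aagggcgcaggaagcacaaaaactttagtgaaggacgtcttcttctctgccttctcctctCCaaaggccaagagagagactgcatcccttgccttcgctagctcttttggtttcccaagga
AT2G07681 (chr2:3289401-3289521) holds a C-to-T change at a mitochondrial CG site, on the strand opposite to the one printed, against mitochondrial bases 307468 to 307588.
AT2G07681, chromosome 2: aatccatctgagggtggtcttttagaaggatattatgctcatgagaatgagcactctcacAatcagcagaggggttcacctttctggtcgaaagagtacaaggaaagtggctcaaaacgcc
AT2G07681, mitochondrion: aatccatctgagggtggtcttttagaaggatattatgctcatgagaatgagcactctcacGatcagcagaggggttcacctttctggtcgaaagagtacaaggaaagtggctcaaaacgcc
AT2G07798 (chr2:3358134-3358254) holds a C-to-T change at a mitochondrial CHG site, against mitochondrial bases 73085 to 73205 on the minus strand.
AT2G07798, chromosome 2: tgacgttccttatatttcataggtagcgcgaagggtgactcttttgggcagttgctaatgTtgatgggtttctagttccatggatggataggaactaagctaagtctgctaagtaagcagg
AT2G07798, mitochondrion: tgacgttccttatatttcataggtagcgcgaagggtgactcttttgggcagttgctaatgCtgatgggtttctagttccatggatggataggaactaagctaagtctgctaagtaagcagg
AT2G07696, annotated as a ribosomal protein of the S7p/S5e family, is identical in both genomes over its whole length, and it had 0 calls in every pool and context. It was picked among features without a call, and identity did not always go with absent calls. Of the 150 features of the copy without a base difference, 70 had at least 10 CG calls in wt21 stem-cell nuclei. A window of AT2G07696 at chr2:3351579-3351699 is shown as an example of identical sequence.
AT2G07696, both genomes: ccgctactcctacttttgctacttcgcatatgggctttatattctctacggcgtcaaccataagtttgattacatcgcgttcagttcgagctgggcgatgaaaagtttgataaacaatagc

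C-to-T changes were the most frequent difference. Read from the mitochondrial to the nuclear sequence and counting both strands, 102 of the 185 differences (55.1%) were C-to-T, against 24 C-to-A, 19 C-to-G, 15 A-to-G, 13 A-to-T and 12 A-to-C. By context in the mitochondrial genome, C-to-T changes stood at 1.75 per 1000 CG sites (interval 1.26 to 2.43, 35 changes). CHG sites had 2.22 per 1000 (1.66 to 2.98, 44 changes), and CHH sites 0.285 per 1000 (0.190 to 0.428, 23 changes). The intervals of CG and CHG sites overlap each other, and both lie above that of CHH sites. CG and CHG are also the contexts in which the copy carried most methylation in the sperm pools described below, with CG above CHG there. Whether methylation had a part in the C-to-T changes was not tested. The assembly's own base quality in this repeat-like region was not tested. Base composition followed the source, with 44.6% G and C in the copy, 44.8% in the mitochondrial genome, and 36.1% and 37.4% in nuclear flanks of the same length to the left and right.

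**Figure D1:**
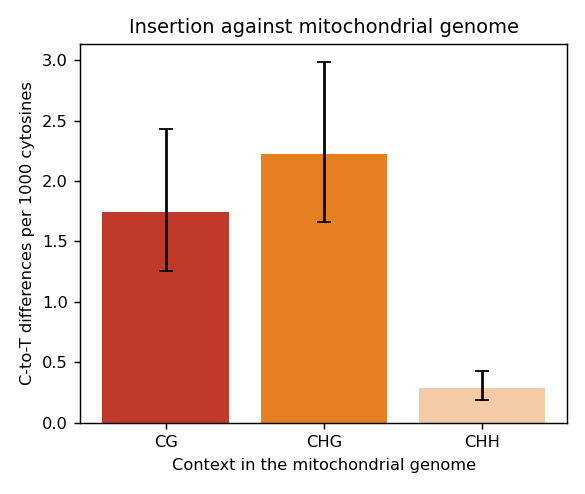
C-to-T differences between the nuclear copy and the mitochondrial genome per 1000 aligned mitochondrial cytosines (bars, with 95% Wilson intervals), by cytosine context. CG (1.75) and CHG (2.22) stand above CHH (0.285).

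The coverage was uneven, both over members and between pools. Of the 220 members, 46 had no CG call in any pool, 135 had at least 10 CG calls in wt21 stem-cell nuclei and 100 had as many in wt21 sperm. In all 8 pools, 90 members reached 10 CG calls. The 10 members with most calls held 43.7% to 45.9% of the CG calls of a pool. The deepest was AT2G05195, with 8217 CG calls in wt21 stem-cell nuclei and 1590 in wt21 sperm. In all, 116 members overlap another member, so the same calls can be counted in more than 1 of them, and only 151 members remain when overlaps are removed.

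Calls placed on the insertion were far less often methylated in CG than those on its surroundings in the stem-cell pools, and at least as often in the sperm pools. Over all calls of its members, the CG level of the insertion in the stem-cell pools of wt21, ago5, ago9 and ago59 was 22.0%, 22.0%, 19.7% and 20.7%. In the sperm pools, in the same order, it was 95.7%, 95.3%, 94.2% and 93.4%. The intervals of wt21 were 21.7% to 22.3% and 95.4% to 96.1%. The 4 stem-cell pools and the 4 sperm pools did not overlap. The left flank, the 270000 bases before the insertion with 241 features, stood at 79.5% in wt21 stem-cell nuclei and 92.8% in wt21 sperm. The right flank, with 173 features, stood at 74.1% and 86.3%. CG calls on both sides were thus mostly methylated in both cell types, while calls placed on the insertion were mostly so in sperm and mostly not in stem-cell nuclei. From these levels, less methylation of the nuclear copy and calls from mitochondrial DNA cannot be told apart, and the part of either was not tested.

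CHG methylation showed the same order of cell types. The CHG level of the insertion was 13.5%, 12.4%, 11.7% and 11.8% in the stem-cell pools of wt21, ago5, ago9 and ago59, and 48.6%, 45.7%, 47.7% and 42.8% in their sperm pools. In wt21 the flanks stood at 39.3% and 44.0% in stem-cell nuclei and at 47.1% and 49.2% in sperm. The insertion thus lay far below both flanks in stem-cell nuclei and between them in sperm. CHH levels were low in every pool. The insertion had a CHH level of 2.05%, 1.92%, 1.90% and 1.87% in the stem-cell pools of wt21, ago5, ago9 and ago59, and of 2.36%, 1.91%, 2.39% and 1.99% in the sperm pools. The flanks had more CHH methylation in stem-cell nuclei (5.56% and 5.81% in wt21) than in sperm (2.67% and 2.80%). Chloroplast features had a CHH level of 0.303% to 0.312% in the stem-cell pools. In the sperm pools of wt21, ago5, ago9 and ago59 they had 1.37%, 1.34%, 4.56% and 1.06%. Over all nuclear genes the same sperm pools had 1.02%, 0.959%, 0.974% and 0.899%. The chloroplast level was above that of nuclear genes in each sperm pool, so it was not used as a background of incomplete conversion.

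**Figure D2:**
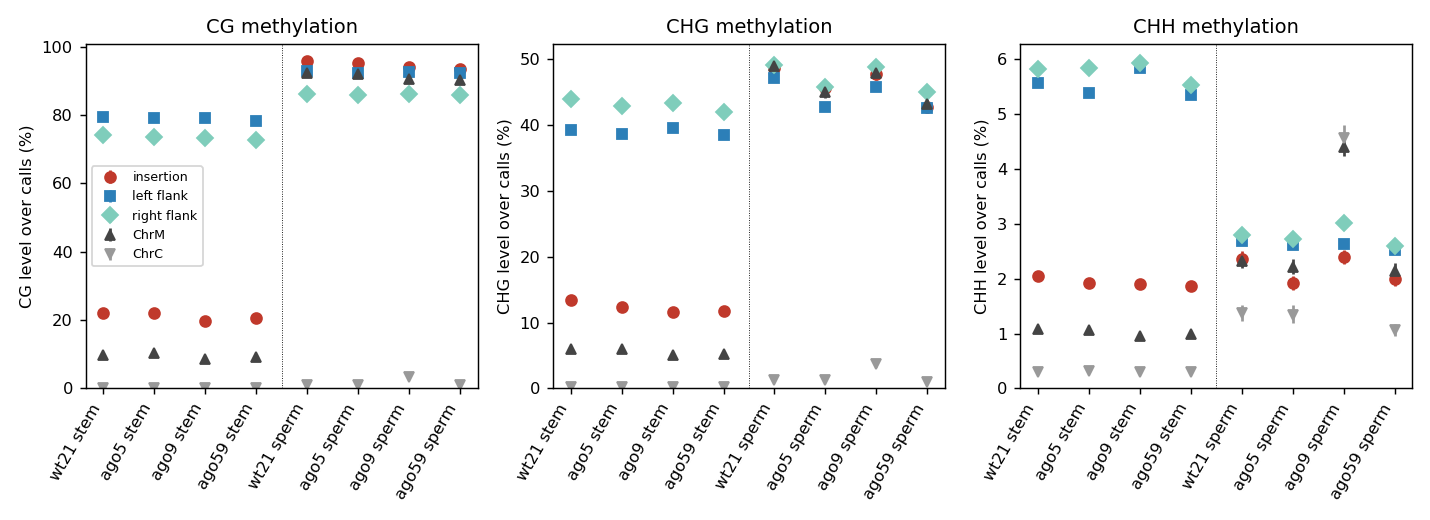
Methylation level over calls (%) in the 3 contexts for the insertion, its left and right flanks, mitochondrial (ChrM) and chloroplast (ChrC) features in the 8 pools, with 95% Wilson intervals. The insertion's CG level lies at 19.7% to 22.0% in the stem-cell pools and at 93.4% to 95.7% in the sperm pools, where it is above both flanks of the same pool.

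The difference between sperm and stem-cell nuclei was far larger in the insertion than next to it. In wt21 the CG level was 73.8 points higher in sperm (73.3 to 74.2), against 12.8 points (12.6 to 13.1) over both flanks, a gap of 60.9 points (60.4 to 61.4). In CHG the insertion was 35.1 points higher in sperm and the flanks 6.45 points, a gap of 28.7 points (27.7 to 29.6). In CHH the insertion differed by 0.315 points (0.174 to 0.462) while the flanks were lower in sperm, with a difference of -2.96 points. The sign of the CHH difference of the insertion depends on how members are weighted, since the mean over members was -0.397 points. The CG difference of the mutants ago5, ago9 and ago59 was 73.2, 74.4 and 72.7 points, with gaps to the flanks of 60.4, 61.1 and 59.0 points. The contrast was therefore present in all 4 genotypes, which share no pool in it.

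Member by member, the difference had the same direction in nearly all members. Of the 99 members with at least 10 CG calls in both wt21 pools, 92 were at least 10 points higher in sperm and 0 were as much lower. Over all features of the series, 26.9% were higher and 0.632% lower by that rule, and 250 of 322 flank features were higher. The median difference was 69.2 points over the members, 13.8 over flank features and 2.41 over all features. The 7 members that were not higher by 10 points already had a CG level of 87.2% to 100% in stem-cell nuclei. By any amount, 96 of the 99 were higher in sperm, 1 was lower and 2 were equal. The count of higher members for ago5 was 91 of 96 (26.3% of all features), for ago9 91 of 97 (26.8%) and for ago59 91 of 92 (27.7%). Members at least 10 points lower in sperm numbered 0, 1 and 0 in ago5, ago9 and ago59, beside 0.778%, 0.661% and 0.682% of all features. In CHG, 90 of 103 members were higher in wt21 sperm and 2 lower, beside 9.88% of all features higher and 3.35% lower. In CHH, 0 of 118 members were higher and 0 lower by 10 points, beside 2.75% and 3.63% of all features.

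The members varied widely in stem-cell nuclei and little in sperm. Over the 135 members with at least 10 CG calls, the CG level in wt21 stem-cell nuclei ran from 0% to 100% with a median of 27.6% and quartiles of 17.0% and 42.3%. Over 100 members in wt21 sperm it ran from 77.6% to 100% with a median of 97.2% and quartiles of 94.9% and 100%. CHG levels had medians of 14.5% in stem-cell nuclei and 50% in sperm, with ranges of 0% to 66.98% and 20% to 76.9%.

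**Figure D3:**
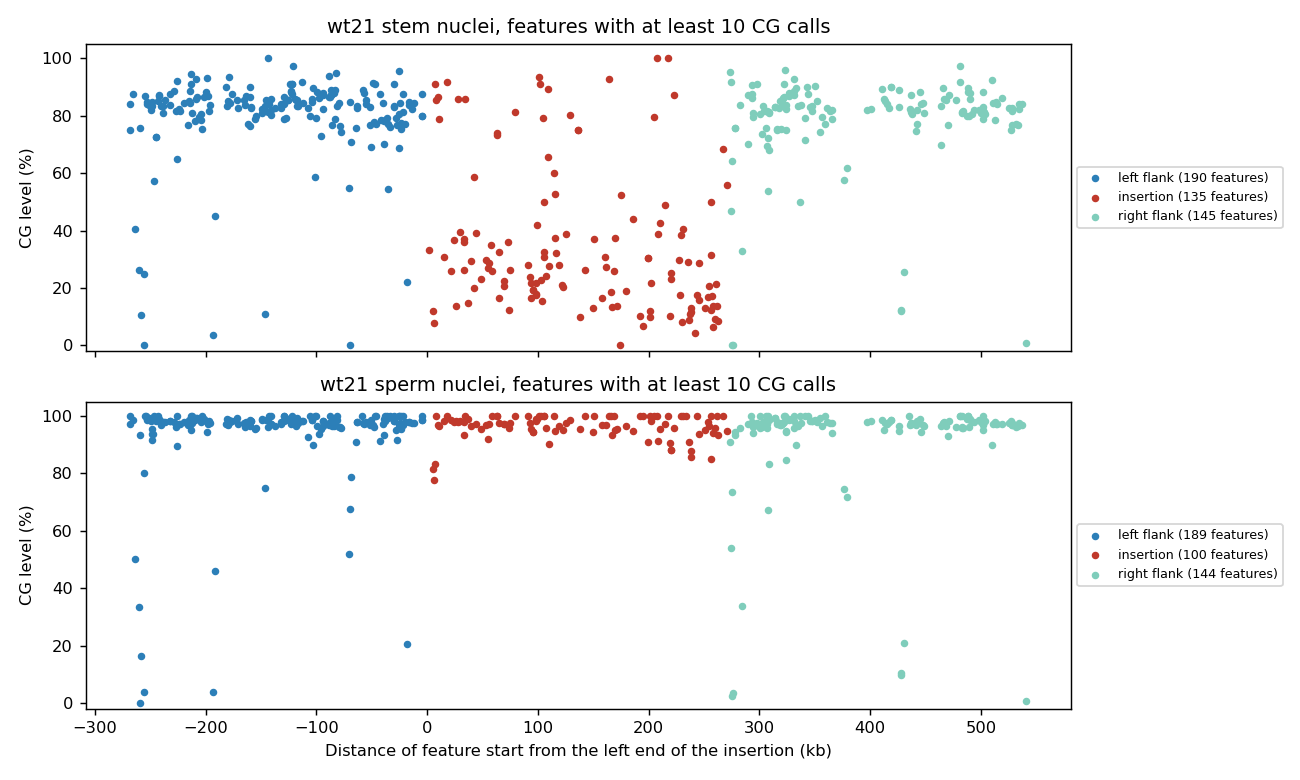
CG level (%) of each feature with at least 10 CG calls in wt21 stem-cell nuclei (top) and wt21 sperm nuclei (bottom), against the distance of its start from the left end of the insertion (kb). Members of the insertion spread around a median of 27.6% in stem-cell nuclei and crowd near 97.2% in sperm, where they run level with the flanks.

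Along the insertion the stem-cell level was highest on the left. In 9 windows of 30 kb, the CG level over calls in wt21 stem-cell nuclei was 31.0% in the first (29.5 to 32.4) and 15.7% in the last (15.1 to 16.3). It was 29.6%, 23.7%, 23.3%, 21.6%, 18.7%, 25.1% and 17.4% in the windows between. The seventh window, which had the fewest calls (2125), interrupts an otherwise steady order. The same windows in wt21 sperm lay between 93.4% and 97.1%, with no such order. Members with fewer calls also had higher levels in stem-cell nuclei. The 47 members under 2 calls per CG cytosine had a median of 52.6%, the 56 members from 2 to under 10 calls had 23.0%, and the 32 members with 10 calls or more had 18.6%. Level and depth come from the same calls here, and they share the authors' alignment, so their relation is a description.

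Splitting the calls into methylated and unmethylated ones showed which of them differed. Per CG cytosine of the members, wt21 stem-cell nuclei gave 1.22 methylated and 4.34 unmethylated calls, and wt21 sperm gave 0.908 methylated and 0.0405 unmethylated calls. Unmethylated CG calls on the insertion were 107 times as many in the stem-cell pool as in sperm, while methylated calls were 1.35 times as many. Over both flanks the same ratios were 2.80 and 1.09. The other genotypes gave ratios of 107, 65.3 and 69.5 for unmethylated and 1.505, 0.997 and 1.29 for methylated calls in ago5, ago9 and ago59. In CG the unmethylated calls thus differed far more between cell types than the methylated ones. In CHG methylated calls were 1.66, 1.70, 1.17 and 1.60 times as many in the stem-cell pools of wt21, ago5, ago9 and ago59, and unmethylated calls 10.1, 10.1, 8.06 and 8.97 times. In CHH the ratios were 3.91 to 6.49 for methylated and 4.94 to 6.47 for unmethylated calls.

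The calls were also set against the flanks. Methylated CG calls per cytosine were 25.2% of those in the flanks in wt21 stem-cell nuclei and 20.3% in wt21 sperm, with 23.1% to 25.4% over all stem-cell pools and 19.3% to 20.3% over all sperm pools. In CHG the share was 24.4% in wt21 stem-cell nuclei and 16.5% in wt21 sperm. Unmethylated calls per cytosine were 291% of those in the flanks in wt21 stem-cell nuclei and 7.61% in wt21 sperm. Total depth on the insertion was 87.7% of that in the flanks in wt21 stem-cell nuclei and 19.0% in sperm. Calls on organelle features moved in the same direction. Chloroplast features drew 56.9 to 61.3 CG calls per 1000 nuclear CG calls in the stem-cell pools and 0.147 to 0.269 in the sperm pools. From a level alone, less methylation of the nuclear copy and more calls from unmethylated mitochondrial DNA cannot be told apart, and the part of either was not tested.

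**Figure D4:**
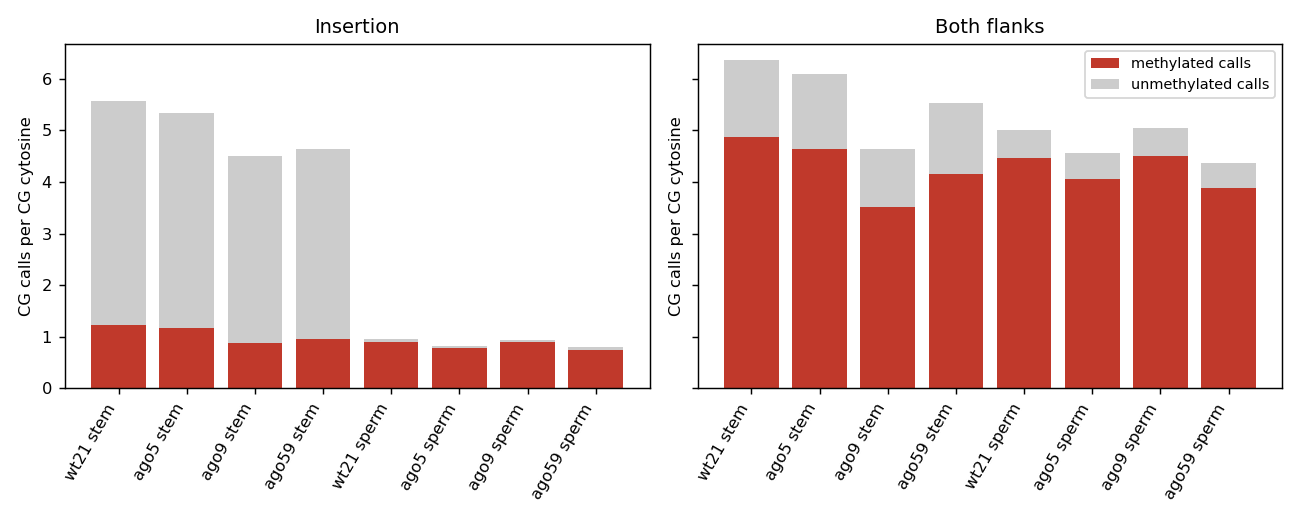
Methylated and unmethylated CG calls per CG cytosine in the members of the insertion (left) and in both flanks (right) for the 8 pools, on a shared scale from 0. In wt21 the insertion has 1.22 methylated calls in stem-cell nuclei and 0.908 in sperm, while unmethylated calls go from 4.34 to 0.0405.

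Features of the mitochondrial chromosome, 162 in all, carried the same contrast. Their CG level was 9.77% in wt21 stem-cell nuclei (9.62 to 9.93) and 92.4% in wt21 sperm (92.0 to 92.8). In ago5, ago9 and ago59 the stem-cell levels were 10.2%, 8.72% and 9.14%, and the sperm levels were 92.0%, 90.6% and 90.2%. Their CHG level in wt21 was 6.04% in stem-cell nuclei and 49.1% in sperm. Methylated CG calls on these features were 0.917 times as many in wt21 stem-cell nuclei as in sperm, and unmethylated calls 103 times as many. Chloroplast features differed, with a CG level of 0.279% in wt21 stem-cell nuclei and 1.14% in wt21 sperm. Calls placed on mitochondrial features in sperm thus had CG and CHG levels close to those of the nuclear insertion and far from those of the chloroplast.

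The annotation names a mitochondrial gene as the counterpart of 53 members, which gives 53 pairs with 52 mitochondrial genes. In wt21 stem-cell nuclei 19 pairs had at least 10 CG calls on both copies, with a median level of 60% on chromosome 2 and 16.0% on the mitochondrial gene, and the chromosome 2 copy was higher in 18 of them. In wt21 sperm 12 pairs qualified, with medians of 98.4% and 95.8%, and the chromosome 2 copy was higher in 10. The pair of AT2G07777, annotated as ATP synthase 9, shows the pattern, with 78.7% in stem-cell nuclei and 22.6% on its mitochondrial partner ATMG01090. Another member, AT2G07671, is annotated as an ATP synthase subunit C family protein, and it and its partner ATMG01080 had 0 CG calls in wt21. The chromosome 2 member thus had the higher level in most pairs with enough calls, and by less in sperm. Paired features can differ much in length, with 2150 bases in AT2G07777 against 789 in ATMG01090, and 3484 in AT2G07798 against 342 in ATMG01220. The levels of a pair are therefore not always taken over the same sequence.

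Some mitochondrial partners had few methylated calls. Of 22 mitochondrial genes of a pair with at least 10 CG calls in wt21 stem-cell nuclei, 7 were under 5% and 4 at 0%, beside 9.77% over all mitochondrial features. AT2G07715, an OB-fold protein whose printed window carries a pair of differences, had a CG level of 13.6% in wt21 stem-cell nuclei over 2491 calls and 95.4% in wt21 sperm. Its mitochondrial partner ATMG00560 had a level of 0% over 322 stem-cell calls and 0% over 7 sperm calls. For AT2G07724 all 15 stem-cell calls were methylated, while its mitochondrial partner ATMG00200 stood at 0.704% over 284 calls in stem-cell nuclei and at 8.33% over 12 calls in sperm. The sperm values of both partners rest on few calls.

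Among members annotated as proteins of the respiratory chain, ATP synthase, ribosome or cytochrome c maturation, 21 were found. In the mitochondrion such genes encode parts of the electron transport chain, of the enzyme that makes ATP and of the organelle's own translation, and whether the nuclear copies are expressed was not measured. Of these 21 members, 4 had no CG call in any pool. In wt21 stem-cell nuclei 13 had at least 10 CG calls, with levels of 20.5% to 85.7% and a median of 38.7%. In wt21 sperm 11 did, with levels of 91.2% to 100% and a median of 95.8%. All 10 with enough calls in both pools were at least 10 points higher in sperm, in a contrast where 26.9% of all features were.

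Of the members annotated as ATP synthase subunits, the 2 with CG calls in wt21 differed widely in stem-cell nuclei. The others, AT2G07671, AT2G07707 and AT2G07741, had 0 CG calls in both wt21 pools. AT2G07698, the alpha subunit of the catalytic F1 part (chr2:3361463-3364127), had stem-cell CG levels of 20.5%, 17.6%, 18.7% and 16.8% in wt21, ago5, ago9 and ago59. Its sperm levels were 95.1%, 96.0%, 95.7% and 94.7%. AT2G07777 (chr2:3249396-3251545), annotated as ATP synthase 9, had stem-cell levels of 78.7%, 84.9%, 65.8% and 75.9%, and sperm levels of 96.5%, 97.9%, 97.9% and 96.2%. Among the 39 members with at least 100 CG calls in both wt21 pools it had the smallest difference between cell types, 17.7 points (10.3 to 24.5). The pools of the cell types did not overlap for either gene.

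Members of the respiratory chain and of cytochrome c maturation covered a like range. The cytochrome c maturation members AT2G07768 and AT2G07815 were above AT2G07777 in wt21 stem-cell nuclei, at 85.7% over 77 CG calls and 79.7% over 59. AT2G07681 (chr2:3287529-3292366), annotated as a cytochrome c assembly protein, had stem-cell CG levels of 23.0%, 18.3%, 17.7% and 23.6% in wt21, ago5, ago9 and ago59, and sperm levels of 95.6%, 89.4%, 94.7% and 96.7%. AT2G07633 (chr2:3329660-3331324), an NADH-plastoquinone oxidoreductase subunit, had stem-cell levels of 27.9%, 29.4%, 23.9% and 23.2% and sperm levels of 100%, 94.6%, 93.7% and 98.7%. AT2G07718 (chr2:3424685-3430483), a cytochrome b protein, had stem-cell levels of 44.0%, 31.7%, 33.1% and 31.7% and sperm levels of 94.7%, 96.1%, 94.3% and 92.7%. In AT2G07681, AT2G07633 and AT2G07718 each sperm pool was above each stem-cell pool.

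The extremes of the range were members of unknown function. AT2G07673 (chr2:3266420-3267120) had the highest CG level in wt21 stem-cell nuclei among the 86 members with at least 100 calls, 86.0%, and 88.4%, 92.6% and 89.0% in ago5, ago9 and ago59. AT2G07659 (chr2:3481036-3482584) had the lowest, 4.26% in wt21 and 0%, 0.680% and 4.48% in the mutants, over 67 to 147 calls. In sperm AT2G07673 was at 97.8% to 100% and AT2G07659 at 80% to 100%, the latter over 5 to 9 calls only. AT2G00510 (chr2:3500740-3501222) had the largest difference between cell types, from 13.7% to 100% in wt21, which is 86.3 points. In the mutants AT2G00510 had 10.6%, 10.8% and 8.23% in stem-cell nuclei and 94.8%, 95.6% and 97.9% in sperm.

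Some members were highly methylated in stem-cell nuclei as well. At least 80% CG methylation in wt21 stem-cell nuclei was found in 15 members, of which 13 were genes and 0 were transposable elements. These 15 had 11 to 157 CG calls with a median of 47, against a median of 188 over the 135 members, and held 1.02% of the calls of the insertion. In wt21 sperm 13 of the 15 had at least 10 CG calls, 10 to 71 each, with levels of 83.3% to 100%. In CHG 6 of 103 members had their lower wt21 level in sperm. The pseudogene AT2G07666 (chr2:3506000-3506320) had the largest such drop among 42 members with at least 100 calls in both pools. Its CHG level was 66.98% in wt21 stem-cell nuclei and 57.2% in wt21 sperm, over 318 and 145 calls. In the mutants it had 58.8%, 59.9% and 57.4% in stem-cell nuclei and 57.6%, 60.8% and 61.7% in sperm, so the order of cell types held in wt21 and ago5 but not in ago9 and ago59.

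Sperm levels lay close together whatever the number of differences to the mitochondrial sequence. The 150 members without a base difference to the mitochondrial genome of TAIR10.1 had a CG level of 24.0% in wt21 stem-cell nuclei and 96.2% in wt21 sperm. The 41 members with 1 difference had 27.3% and 96.4%, and the 29 members with at least 2 had 19.7% and 95.4%. Depth differed more, with 3.69, 3.83 and 8.43 CG calls per CG cytosine in stem-cell nuclei and 0.620, 0.707 and 1.41 in sperm. Members with more differences thus drew more calls in both cell types, while the sperm levels of the 3 classes lay between 95.4% and 96.4%.

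Near the ends of the insertion the levels of members were mixed. The last feature before it, AT2TE13970 (chr2:3234486-3237360), a transposable element, had a CG level of 80.03% in wt21 stem-cell nuclei and 98.6% in wt21 sperm. The features AT2G07742 and AT2G07771 lie inside the insertion but start before base 3240000, and both had 0 calls in the wt21 pools. The first member, AT2G07773, had 33.3% over 27 CG calls in wt21 stem-cell nuclei, and the next, AT2G07747, had 12.0% over 915. Further in, AT2G07749 and AT2G07672 had 85.6% over 139 calls and 91.9% over 37. The last member, AT2G05395, crosses the right end of the insertion and had 55.9% in wt21 stem-cell nuclei and 94.7% in wt21 sperm. Low and high levels thus stood side by side within the left end in stem-cell nuclei. AT2G07747, AT2G07749 and AT2G07672 were named after their values were seen.

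Differences between the mutants and wt21 were small beside the difference between cell types. The question the genotypes address is whether AGO5 and AGO9, which bind small RNAs, affect methylation in these cells. In sperm the CHG level of the insertion was 48.6% in wt21, and ago5 differed from it by -2.97 points (-4.20 to -1.73), ago9 by -0.915 (-2.12 to 0.291) and ago59 by -5.86 (-7.10 to -4.61). Over both flanks the same differences were -3.88, -0.819 and -4.39 points. The insertion minus the flanks gave 0.911 points for ago5 (-0.368 to 2.19), -0.0959 for ago9 (-1.34 to 1.15) and -1.47 for ago59 (-2.76 to -0.177). CHG levels in sperm were therefore lower in ago5 and ago59 in the insertion and next to it. Of the 3 gaps, that of ago59 had an interval without 0. Over transposable elements alone the differences were -7.75 points in ago5 and -10.5 in ago59, and over members that share under 90% of their windows of 100 bases with the mitochondrial genome that of ago5 was -1.16.

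Counted by member, 23 of 98 were at least 10 points lower in CHG in ago5 sperm, beside 5.77% of all features and 50 of 308 flank features. In ago9 sperm 12 of 101 were lower, beside 4.25% of all features, and in ago59 sperm 31 of 98, beside 6.57%. Members at least 10 points higher numbered 9, 10 and 10, beside 2.42%, 3.33% and 2.44% of all features. The median difference over members was -3.07, 0.312 and -5.62 points, against -0.134, -0.0133 and -0.190 over all features. The 3 mutants share the wt21 pool, so these counts are not independent of each other. Shallow members also pass 10 points by counting error, and with a limit of 20 points the counts of lower members were 3, 2 and 5, beside 1.62%, 1.26% and 1.82% of all features.

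Single members show the spread. AT2G07798, whose window with a C-to-T change at a CHG site is printed above, had sperm CHG levels of 47.1%, 41.4%, 43.6% and 33.1% in wt21, ago5, ago9 and ago59. It had the largest drop in ago59 among 36 members with at least 100 calls in both pools, -14.0 points (-22.1 to -5.67). The subunit gene AT2G07633 had the largest drop in ago5, with sperm CHG levels of 53.7% in wt21 and 37.4% in ago5 but 63.1% in ago9 and 61.0% in ago59. AT2G07767, a transposable element gene similar to a non-LTR reverse transcriptase, had 43.9%, 28.6%, 64.2% and 36.3% in the same order. AT2G05155 had 51.5% in wt21 and 67.3% in ago5, against 54.8% and 51.7% in ago9 and ago59. AT2G07767 had the largest rise in ago9 and AT2G05155 the largest rise in ago5 among members with at least 100 calls in both pools. These members were picked as extremes of different mutants, so their unlike orders follow from that choice. Over members with at least 10 calls in both pools, 68 of 98 were below wt21 by any amount in ago5, 50 of 101 in ago9 and 74 of 98 in ago59.

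In CG, the sperm level of the insertion differed from wt21 by -0.473 points for ago5 (-0.966 to 0.0158), -1.58 for ago9 (-2.08 to -1.08) and -2.35 for ago59 (-2.90 to -1.81). The flanks differed by -0.413, -0.118 and -0.417 points, and the gap was -1.46 points in ago9 (-2.002 to -0.917) and -1.93 in ago59 (-2.52 to -1.35). Mitochondrial features differed from wt21 sperm much as the insertion did, by -0.446 points in ago5, -1.81 in ago9 (-2.41 to -1.20) and -2.18 in ago59 (-2.82 to -1.53). By member, 4 of 95, 10 of 98 and 7 of 93 were at least 10 points lower, beside 2.57%, 2.33% and 2.35% of all features. With a limit of 20 points 0, 2 and 1 members were lower, beside 0.816%, 0.723% and 0.741%, and with a minimum of 5 calls 11 members were lower in ago59, beside 3.1%. Chloroplast calls were more frequent than in wt21 in ago9 and ago59 and less frequent in ago5. Per 1000 nuclear CG calls they numbered 0.170, 0.147, 0.211 and 0.269 in the sperm pools of wt21, ago5, ago9 and ago59. Unmethylated CG calls on the insertion numbered 0.0190, 0.0186, 0.0255 and 0.0275 per 1000 nuclear CG calls in the same pools. The part that organelle DNA has in the CG differences of sperm was not tested. Over transposable elements alone the difference of ago9 turned to 0.978 points.

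The CG level of the insertion in the stem-cell pools differed from wt21 by 0.0607 points for ago5 (-0.332 to 0.454), -2.23 for ago9 (-2.64 to -1.83) and -1.26 for ago59 (-1.66 to -0.853). The flanks differed by -0.454, -0.570 and -1.25 points. The gap was -1.66 points in ago9 (-2.16 to -1.17) and -0.00493 in ago59 (-0.490 to 0.481). By member, 17 of 133, 23 of 129 and 18 of 125 were at least 10 points lower in ago5, ago9 and ago59, beside 4.44%, 4.75% and 4.77% of all features, and 9, 13 and 12 were at least 10 points higher, beside 4.14%, 4.28% and 4.3%. With a limit of 20 points 6, 6 and 8 members were lower, beside 1.37%, 1.51% and 1.57%, and with a minimum of 20 calls 15 members were lower in ago9, beside 3.5%. Members fell on both sides, and the pooled level moved by at most 2.23 points. Chloroplast calls per 1000 nuclear CG calls were 56.9, 57.9, 61.3 and 60.8 in the 4 pools, and their part in these differences was not tested. As a mean over members the difference of ago59 was -2.53 points, and over transposable elements alone that of ago9 was -6.04.

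**Figure D5:**
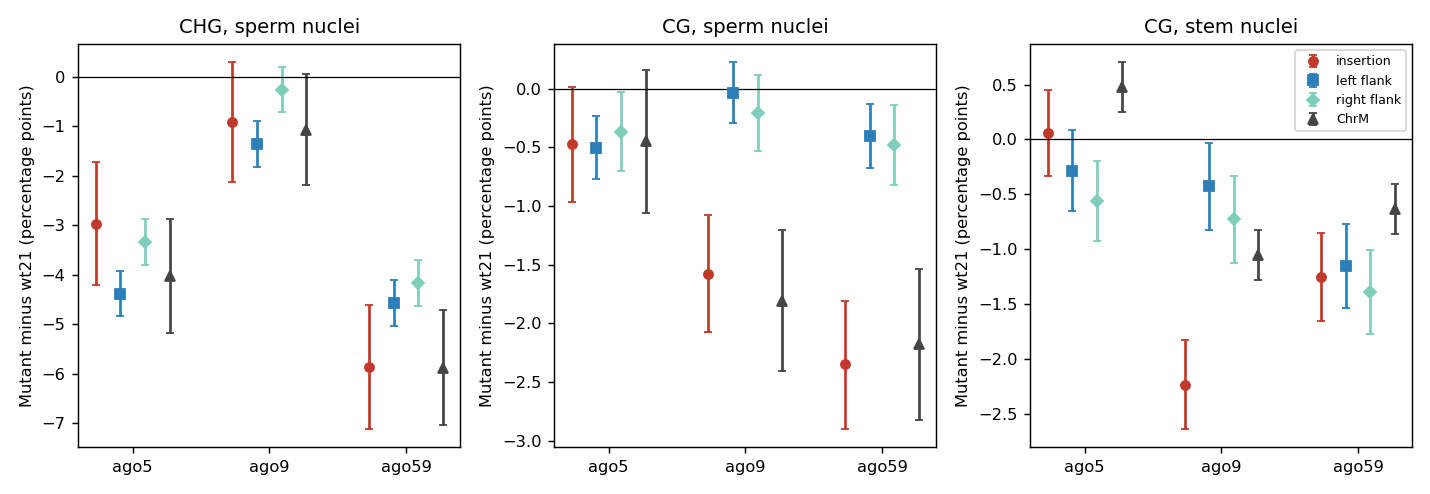
Difference in methylation level between each mutant and wt21 (percentage points, 95% Newcombe intervals) for the insertion, its flanks and mitochondrial (ChrM) features, in sperm CHG (left), sperm CG (middle) and stem-cell CG (right). In sperm CHG the insertion (-2.97, -0.915 and -5.86) and both flanks lie below 0 in all 3 mutants, and in ago9 the intervals of the insertion and the right flank include 0.

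AT2G07739, annotated as a Ycf1 protein, had the largest CG drops among members in stem-cell nuclei of ago5 and ago59. Its stem-cell CG level was 31.4%, 5.74%, 12.4% and 9.26% in wt21, ago5, ago9 and ago59, and every sperm call on it was methylated. AT2G07775, of unknown function, had the largest CHH drops in sperm of ago5 and ago59 among members with at least 100 calls, with 10.3%, 1.10%, 9.27% and 1.68% over 271 to 363 calls. In stem-cell nuclei its CHH levels were 1.47% to 2.12%. The largest CHH rise in ago9 sperm was in AT2G07727, a cytochrome b protein, with 1.89%, 1.80%, 13.9% and 5.15% in the sperm pools in the same order. AT2G07727 has 0 base differences to the mitochondrial genome. Organelle features also had more CHH methylation in ago9 sperm than in wt21 sperm, with 4.39% against 2.32% on mitochondrial and 4.56% against 1.37% on chloroplast features. Over the whole insertion the levels were 2.39% and 2.36%. Whether the rise in AT2G07727 is related was not tested. AT2G07739, AT2G07775 and AT2G07727 were named because they were extreme among many, so their differences are descriptions of these pools.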

How the data were processed

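The authors deposited whole-number counts of methylated calls and of all cytosine calls for each annotated feature, context and group, per the file headers, in 48 columns, 1 per group, context and kind of call. Another 24 columns hold levels and were not used here, since levels were computed from the counts. Per the submitters' processing notes, Trim Galore, Bismark, bedtools 2.30.0 and the build TAIR10 were used. Their settings, the handling of reads that match more than 1 place, and whether replicates and the 8 second runs of stem-cell samples were summed are not given in the sources used here. The labels name the molecule as RNA, whereas their protocol describes bisulfite libraries from 1 to 5 ng of DNA, and the samples were treated as DNA. All 184 members with a locus tag in TAIR10.1 have the same coordinates there, and the 36 transposable elements have none. Columns named wt were read as wt21.

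Levels were summed over calls. The intervals are 95% Wilson and Newcombe intervals. A member counted as different at 10 points with at least 10 calls in both pools. Per pool the insertion holds 12528 to 87213 CG calls, which gives intervals of under 1 point on the level, while single members hold 0 to 8217 CG calls and are less precise. Flanks are the 270000 bases on each side. The insertion was aligned to the mitochondrial genome with BLAST+ 2.17.0, keeping stretches of at least 500 bases and 95% identity. Scripts used Python 3.11.15, pandas 2.3.3, numpy 2.4.6, scipy 1.17.1 and matplotlib 3.10.9 and were tested on simulated data. Members were named by annotation as a mitochondrial protein, by the highest or lowest level, by the largest difference among members with at least 100 calls, or by lying at the ends of the region. AT2G05195, AT2G07715, AT2G07696 and AT2G07724 were named after their values were seen. The members and lists were chosen with earlier results of these data known. Other minimums, limits, subsets of members, weightings and flanks were tried.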

Additional observations from a re-analysis of the deposited data

How the results depend on the processing

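No paired analysis was possible because each group has 1 pool, and leaving out a replicate was not possible for the same reason. Dropping members within 10 kb of the window's ends left the 39 values compared, differences and pool levels together, within their intervals. Centring each pool on its median left the 11 counts within 1.5 times. The subsets sharing under 90% of 100-base windows, without base differences and without AT2G05195, and the mean over members with 10 calls in all 8 pools, were chosen after seeing the data. The CG difference between sperm and stem-cell nuclei in each genotype, and the CHG difference in wt21, stayed positive under every alternative run. For the CHG difference of the mutants no alternative was run.

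For the CG difference between sperm and stem-cell nuclei in wt21, the mean over members was 60.5 points, the median 70.4, the mean over members with 10 calls in all pools 63.3, and the values over transposable elements, over the 3 members that share no 100-base window with the mitochondrial genome and over members without a base difference 65.9, 46.7 and 72.1. For CHG these 6 values were 30.2, 36.3, 30.8, 33.7, 29.2 and 34.2, with 33.6 over members sharing under 90% of windows and 36.1 without AT2G05195 and its overlaps. For CHH the mean turned the sign (-0.397), as did the mean over members called in all pools (-0.291), transposable elements (-0.627) and the 3 members (-1.24), and the median was 0.0306. With shorter flanks, the gap to the flanks was 58.6 points in CG, 27.7 in CHG and 2.94 in CHH, and 1.07 for ago5 in stem-cell CG. The 3 members are AT2TE14250, AT2TE14975 and AT2G05395. AT2TE14975 (chr2:3441791-3441822) is shorter than 100 bases and was judged by the window that starts with it. Of AT2G05395, which crosses the right end, 18.8% aligns to the mitochondrial genome. Values over the 3 members therefore say little about the insertion.

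In stem-cell CG, ago5 gave -1.37 as a mean, -0.809 as a median, -0.804 over members called in all pools, -0.640 over transposable elements and -8.83 over the 3 members. The median was -1.13 for ago9, with -6.04 over transposable elements and -5.52 over the 3 members. Mean and median were -2.53 and -3.51 for ago59, with -2.52 over members called in all pools, -2.14 without base differences and -1.74 without AT2G05195. In sperm CG, ago5 gave -0.999 over members called in all pools, 2.64 over the 3 members, 0.375 under 90% of shared windows and -1.13 without base differences. The sign turned for ago9 over transposable elements (0.978) and the 3 members (4.24), with -2.38 without base differences. It also turned for ago59 over the 3 members (1.28), with a mean of -1.77, a median of -1.18 and -1.81 without base differences. In sperm CHG, ago5 gave -7.75 over transposable elements, -5.16 over the 3 members and -1.16 under 90% of shared windows. The values of ago9 were 0.426 over members called in all pools, 6.26 over the 3 members and 2.32 without base differences. Those of ago59 were -4.48 as a mean, -4.55 as a median, -10.5 over transposable elements, -10.2 over the 3 members and -3.20 without base differences.

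With a limit of 20 points, members lower in sperm CHG numbered 3, 2 and 5 in ago5, ago9 and ago59, in sperm CG 0, 2 and 1, and in stem-cell CG 6, 6 and 8. A minimum of 5 calls gave 11 members lower in ago59 sperm CG, and a minimum of 20 calls gave 15 in ago9 stem-cell CG. The cause of these changes was not tested. Depth limits what can be said of single members, since 53 of the 220 members had no CG call in wt21 stem-cell nuclei and 102 had none in wt21 sperm, where 39 had at least 100.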

Other observations

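Mitochondrial features fell into separate classes in wt21 sperm. Of the 57 mitochondrial features with at least 10 CG calls there, 53 had a CG level of at least 80%, 4 were under 20% and 0 lay between. The 53 features had a level of 92.9% in sperm over 15683 calls (92.5 to 93.3) and 10.4% in stem-cell nuclei over 127581 calls (10.2 to 10.6). The 4 others had 1.69% in sperm over 59 calls (0.300 to 9.00) and 0.235% in stem-cell nuclei over 5105 calls (0.135 to 0.410). They are ATMG00580, ATMG00513 and ATMG01170, each without a methylated CG call in sperm over 25, 12 and 10 calls, and ATMG00200. The 4 were also low in the stem-cell pool, in which ATMG00580 stood at 0.273%, ATMG01170 at 0.157% and ATMG00513 at 0%.

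Mitochondrial features had close levels in sperm whether or not the annotation pairs them with a member of the insertion. The insertion covers 70.9% of the mitochondrial genome, so features without a named pair can also have a nuclear copy. The split therefore cannot show what a nuclear match does to the level. The 52 paired features had a sperm CG level of 92.5% (90.3 to 94.3) over only 667 calls. The 110 others had 92.4% (92.0 to 92.8) over 15107 calls. In stem-cell nuclei the paired features had 17.4% (16.4 to 18.4) and the others 9.44% (9.28 to 9.60). In CHG the sperm levels were 48.5% and 49.1%. The mitochondrial features are named here because of their values, and these counts describe 1 pool per cell type.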
